A study of Mus musculus with 9 samples.

Results

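Respiratory complex I is the entry point of electrons from NADH into the respiratory chain, and most of its subunits are encoded in the nucleus by genes named Nduf. All genes whose symbol begins with Nduf, then one of the letters a, b, c, s or v, then a digit, were taken from the deposited table, which gave 37 genes of 24228 rows with a gene symbol. The table holds FPKM, a level scaled to transcript length and library size, for fully grown mouse oocytes arrested in prophase of meiosis with an intact germinal vesicle. There were 3 groups with 3 libraries each, and all donors were C57BL/6 females given 5 IU of PMSG, which stimulates follicles through gonadotropin receptors, with collection 46 h later. WT oocytes were wild type, MG oocytes carried an Mtor conditional knockout driven by Gdf9-Cre, and MZ oocytes carried one driven by Zp3-Cre. Both promoters drive Cre in the oocyte, that of Gdf9 beginning in younger follicles than that of Zp3. The mTOR kinase regulates protein synthesis and growth, and the comparisons ask how its loss from the oocyte relates to transcript levels. The age is 6 months in the sample labels and 23 days in the series design, which was not resolved. Nothing in the labels says that libraries came from separate animals or how many oocytes each held, so p-values measure only how these libraries vary, and that variation may be technical. Fewer oocytes and less RNA per oocyte cannot be told apart.

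Complex I has the shape of an L. The matrix arm holds the flavin and the iron-sulfur clusters and passes electrons from NADH to ubiquinone, and the membrane arm pumps protons. The core subunits of the matrix arm are nuclear genes, the core subunits of the membrane arm are encoded by mitochondrial DNA and are not among the 37 genes, and the accessory subunits surround both arms. Oocytes rely on mitochondrial respiration for ATP. Dormant oocytes of primordial follicles, a stage not sampled here, are known for low levels of complex I, which limits the formation of reactive oxygen species. Ndufa4 and Ndufa4l2 match the name but are not complex I subunits: Ndufa4 is a subunit of cytochrome c oxidase (complex IV), and Ndufa4l2 is its paralog, a gene induced by hypoxia.

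The targeted gene was measured first. Mtor was at 3.25, 3.33 and 2.95 FPKM in WT, 5.25, 6.00 and 4.64 FPKM in MG and 6.55, 4.67 and 4.39 FPKM in MZ, so no knockout library was below WT. These values are for the whole gene and do not separate the floxed exons, so they do not check the labels, and WT, MG and MZ stand for the libraries with those labels. The summed level of 8 oocyte markers was 21147 to 24559 FPKM in WT, 11235 (MG 3) to 25607 FPKM in MG and 25705 to 26940 FPKM in MZ, so that MZ lay above all WT and all MG libraries. In MG against MZ 4 of the 8 markers had an unadjusted p under 0.05 by limma (17.6% of all tested genes) and 0 passed after adjustment. Bmp15 (log2 difference -0.84), Mos (-1.12) and Zp3 (-0.63) were lower in every MG library and Nlrp5 (0.90) was higher. By the q-values of the authors' deposited table, Gdf9, Bmp15, Zp2, Zp3, Nlrp5 and Mos were under 0.05 in MG against MZ. Zp1 and Dazl were not, and 9.05% of all tested genes were. FPKM summed over all genes was lower in MG (428329 to 554305) than in WT (584503 to 718684) and MZ (657851 to 677618). Among 12 granulosa and cumulus markers Foxl2 and Amhr2 were listed at 0 in all 9 libraries. The summed level of these markers overlapped between WT (21.6 to 34.3 FPKM), MG (22.0 to 38.9 FPKM) and MZ (21.5 to 28.9 FPKM), but single markers differed in opposite directions within it. Of the 7 that were tested 0 passed limma, and 3 had an unadjusted p under 0.05 in MG against WT (17.7% of all tested genes). Cyp19a1 was at 22.6 FPKM on average in WT and 13.1 in MG. Kitl was at 0.350, 1.154 and 0.398 FPKM in WT, 4.05, 2.51 and 6.36 FPKM in MG and 3.26, 1.82 and 3.55 FPKM in MZ, higher in all 6 knockout libraries. Nr5a2 was at 1.17 FPKM on average in WT and 4.17 in MG, without overlap. The part of these markers in the results on Nduf genes was not tested. The theca, stroma and vessel markers summed to 17.4 to 52.7 FPKM over the 9 libraries, and the blood and immune markers to 2.18 to 25.9 FPKM. For a transcript of 1 kb a single fragment was worth 1.31 FPKM (MG 3) to 2.36 FPKM (MZ 1), so subunits at a few FPKM rest on a handful of fragments.

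The subunits were unequal in level. In WT their mean FPKM ran from 0 to 175, with a median of 19.3, against a median of 6.37 for the 10801 genes tested (those with at least 1 FPKM in at least 3 of the 9 libraries). Ndufb11, an accessory subunit of the distal membrane arm, had the highest mean over the 9 libraries. It was at 163, 152 and 206 FPKM in WT, 155, 133 and 162 FPKM in MG and 144, 167 and 170 FPKM in MZ. Ndufa2, an accessory subunit of the matrix arm, was at 148, 191 and 187 FPKM in WT, 158, 167 and 119 FPKM in MG and 132, 168 and 135 FPKM in MZ. Both genes overlapped between all 3 groups. Ndufa4, the complex IV subunit, was as abundant, at 137, 204 and 102 FPKM in WT, 213, 151 and 169 FPKM in MG and 179, 204 and 58.2 FPKM in MZ. At the low end Ndufc1, a small subunit of the proximal membrane arm, was listed at 0 in all 9 libraries. Ndufa11, which also belongs to the proximal membrane arm, was at 1.53, 0.838 and 3.47 FPKM in WT, 1.77, 1.36 and 0 FPKM in MG and 0, 1.14 and 2.82 FPKM in MZ. Ndufa1 and Ndufb2 were listed at 0 in 7 of 9 libraries and, with Ndufc1, were not tested, which left 34 of 37 genes. A value of 0 can be a failed estimate. The map of levels by library shows that zeros lay in all 3 groups, with 3 to 6 of the 37 genes at 0 in WT libraries, 5 to 8 in MG and 2 to 7 in MZ.

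**Figure D1:**
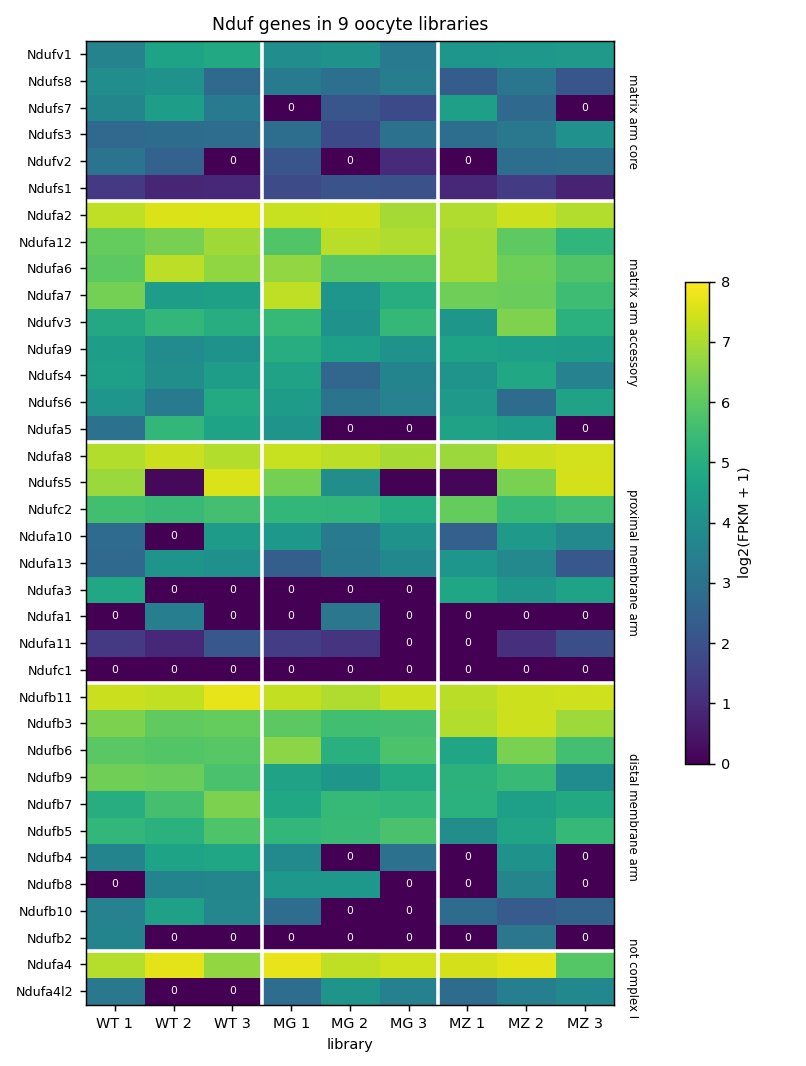
Level of each Nduf gene reported here (rows, by arm of complex I) in each of the 9 libraries (columns), as log2(FPKM + 1); a printed 0 marks a gene listed at 0. Ndufb11, Ndufa2 and Ndufa4 are high in nearly every library, and Ndufc1 is at 0 in all 9.

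A sequence feature was shared by some of the genes. RefSeq promoters (GRCm38.p6, from 250 bases before to 50 bases after the start site) were at hand for 32 of the 37 genes. The core of the YY1 motif, AAGATGGC on either strand, lay in 7 of them (21.9%). It lay in 5.61% of 8246 tested genes and 3.19% of all 27025 gene symbols with a RefSeq promoter. All 7 cores lay on the transcribed strand with their first base 23 to 39 bases after the start site, and in all 7 the ATG inside the core is an annotated start codon. Within the first 50 transcribed bases the core was found in 7 of 32 genes, against 2.60% of tested genes and 1.04% of all gene symbols with a promoter. The 30 bases around each core are shown, 5′ to 3′ on the transcribed strand, because they place the motif over the start of translation; capitals mark the core.
Ndufa3: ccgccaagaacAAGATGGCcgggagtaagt
Ndufa9: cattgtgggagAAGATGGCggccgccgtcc
Ndufb8: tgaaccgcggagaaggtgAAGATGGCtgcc
Ndufc1: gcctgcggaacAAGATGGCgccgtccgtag
Ndufs4: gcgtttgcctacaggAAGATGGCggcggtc
Ndufs6: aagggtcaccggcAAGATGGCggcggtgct
Ndufs7: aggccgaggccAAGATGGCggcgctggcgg
The windows lie at chr7:3617384-3617413 (plus strand) for Ndufa3, chr6:126849097-126849126 (minus) for Ndufa9, chr19:44555393-44555422 (minus) for Ndufb8, chr3:51408915-51408944 (minus) for Ndufc1, chr13:114388045-114388074 (minus) for Ndufs4, chr13:73328433-73328462 (minus) for Ndufs6 and chr10:80249462-80249491 (plus) for Ndufs7. The 7 genes belong to the matrix arm, the proximal and the distal membrane arm. Their means over the 9 libraries ran from 0 (Ndufc1) to 20.6 FPKM (Ndufa9), so the core was not found in the most abundant Nduf genes. The core of the NRF1 motif, GCGCATGCG, was in 2 of 32 promoters (6.25%, against 4.37% of tested genes), and the core bound by the ETS factor GABP, CCGGAAG, in 4 (12.5%, against 20.7%). A match is a description of letters and not of binding.

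Few subunits passed the test in the comparisons of the groups. With limma on log2(FPKM + 1) and Benjamini-Hochberg adjustment over all tested genes, 0 of 34 genes passed an adjusted p of 0.05 in MG against WT, where 0.343% of all tested genes passed. In MZ against WT 0 of 34 passed (0.037% of all). In MG against MZ 1 of 34 passed (0.13% of all), and this was Ndufb3, lower in MG. At an unadjusted p under 0.05 limma gave 7 of 34 in MG against WT (5 lower and 2 higher; 17.7% of all tested genes), 8 in MZ against WT (5 lower and 3 higher; 6.3%) and 6 in MG against MZ (4 lower and 2 higher; 17.6%). By the q-values of the authors' deposited table, under 0.05, 0 of 34 passed in MG against WT (4.13% of all tested genes), 0 in MZ against WT (0.787%) and 2, Ndufa3 and Ndufb3, in MG against MZ (9.05%). The authors' deposited table gives a p-value of 1 for 13 of the 34 genes in MG against WT, for 13 in MZ against WT and for 15 in MG against MZ.

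Counted by libraries that did not overlap, 5 of 34 genes were lower in all 3 MG than in all 3 WT libraries (9.89% of all tested genes) and 1 was higher (11.6%). For MZ against WT 2 were lower (6.52%) and 2 were higher (5.67%), and for MG against MZ 4 were lower (12.3%) and 1 was higher (12.8%). The shares of the 34 genes were 14.7%, 2.94%, 5.88%, 5.88%, 11.8% and 2.94% in the same order, on either side of the background and based on 5 genes or fewer each. The MG and MZ comparisons with WT share the WT libraries.

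**Figure D2:**
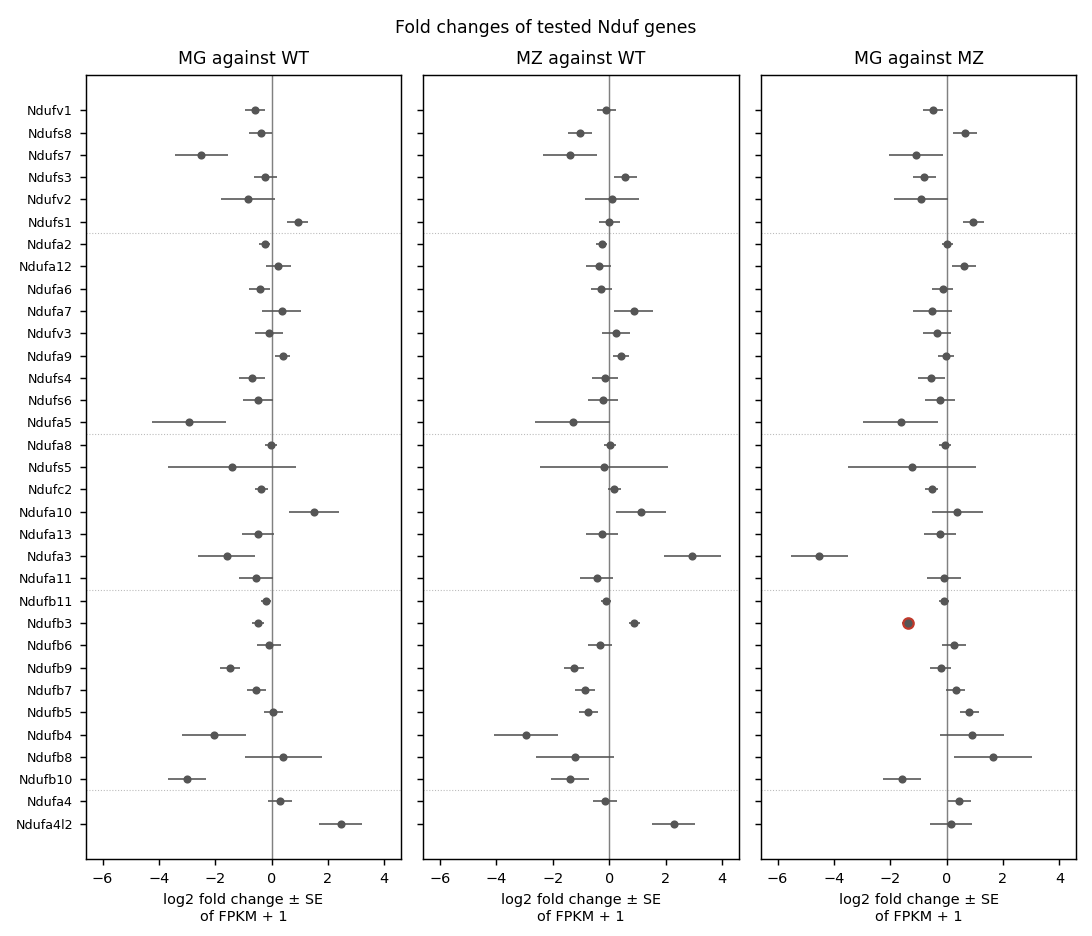
Log2 fold change of FPKM + 1 with its standard error (x axis) for each tested gene reported here (y axis, by arm) in the 3 comparisons; the red ring marks the gene with an adjusted p under 0.05. Ndufb3 in MG against MZ is the gene marked, and the widest error bars belong to Ndufs5.

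The gene that passed belongs to the distal membrane arm. Ndufb3, a small accessory subunit of that arm (chromosome 1, 58586384 to 58595964, plus strand, GRCm38), was at 84.5, 65.5 and 68.8 FPKM in WT, 62.5, 46.9 and 47.6 FPKM in MG and 134, 166 and 112 FPKM in MZ. Each MG library was below each WT library, and each MZ library was above each WT library. The log2 difference of MG against MZ was -1.37 ± 0.21 (SE, limma adjusted p = 0.0358). Against WT the log2 differences were -0.47 ± 0.21 in MG (limma adjusted p = 0.274) and 0.90 ± 0.21 in MZ (adjusted p = 0.425), and neither passed. The call for MG against MZ is not firm: over 17 alternatives the adjusted p ran from 0.0189 to 0.186 and the call was lost in 11, among them leaving out WT 2, WT 3, MG 2, MG 3, MZ 1, MZ 2 or MZ 3. In the same comparison the summed oocyte markers were also lower in every MG library, and their part in the difference was not tested. A processed pseudogene, Gm45930, is 96.8% identical to Ndufb3 over 282 bases and has no row in the table.

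Ndufb9, an accessory subunit of the distal membrane arm (chromosome 15, 58933756 to 58939488), was at 76.5, 71.4 and 51.6 FPKM in WT, 23.7, 17.9 and 28.9 FPKM in MG and 34.2, 40.9 and 14.0 FPKM in MZ. All 6 knockout libraries were below all 3 WT libraries. The log2 differences from WT were -1.47 ± 0.36 in MG (limma adjusted p = 0.102) and -1.25 ± 0.36 in MZ (limma adjusted p = 0.617), and neither passed. Ndufb10, another accessory subunit of that arm (chromosome 17, 24722060 to 24724478), was at 10.7, 23.0 and 12.0 FPKM in WT, 6.2, 0 and 0 FPKM in MG and 5.95, 3.89 and 4.88 FPKM in MZ. It too was lower in all 6 knockout libraries than in WT. The log2 difference of MG against WT was -2.99 ± 0.68 (limma adjusted p = 0.0828), and over 17 alternatives the adjusted p ran from 0.0228 (without MG 1) to 0.210, with the call made in 1. Ndufb10 rested on at most 2.2 fragments in any knockout library.

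Ndufb4 was at 11.3, 23.8 and 25.1 FPKM in WT, 13.1, 0 and 6.88 FPKM in MG and 0, 16.1 and 0 FPKM in MZ, with overlap between the groups. Ndufb5 was at 38.5, 33.5 and 55.1 FPKM in WT, 38.6, 41.0 and 50.9 FPKM in MG and 14.6, 24.6 and 40.1 FPKM in MZ. Its log2 difference of MG against MZ was 0.80 ± 0.33 (limma adjusted p = 0.235), with the highest MZ library above the lowest MG library. Ndufb6, Ndufb7 and Ndufb8 did not pass in any comparison, at mean levels over the 9 libraries of 57.1, 39.2 and 7.90 FPKM. Of the 9 tested genes of this arm, 7 had a negative log2 difference in MG against WT (77.8%, against 47.0% of all tested genes) and 8 in MZ against WT (88.9%, against 48.9%). At an unadjusted p under 0.05 limma gave 3 of the 9 in MG against WT and 3 in MG against MZ. The shares over all tested genes were 17.7% and 17.6%. In MZ against WT it gave 5 (6.3% of all), among them Ndufb3, which was higher in MZ.

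**Figure D3:**
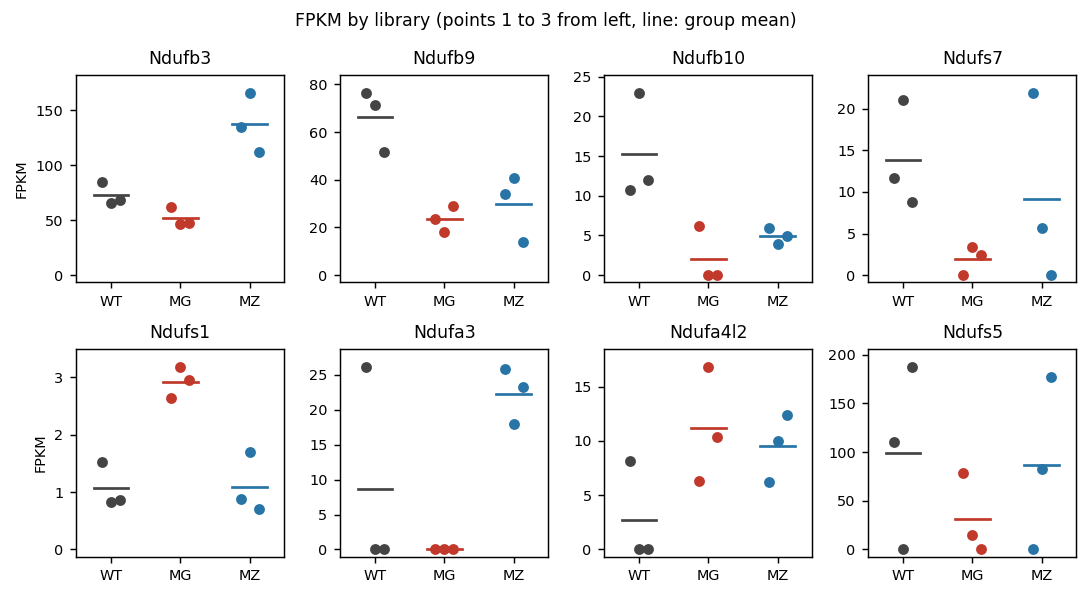
FPKM (y axis, linear) of 8 Nduf genes in each library (points, libraries 1 to 3 from left) of WT, MG and MZ (x axis), with the group mean as a line. Ndufb3 lies at 46.9 to 62.5 in MG and 112 to 166 in MZ, and Ndufs5 runs from near 0 to over 79 within each group.

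The 7 nuclear core subunits of the matrix arm were low in level and gave 0 calls in the limma test in each comparison. Their unadjusted p was under 0.05 for 2 in MG against WT, 1 in MZ against WT and 1 in MG against MZ. The shares over all tested genes were 17.7%, 6.3% and 17.6%, in that order. Ndufs7, which holds the iron-sulfur cluster next to the ubiquinone site (chromosome 10, 80249121 to 80256794), was at 11.7, 21.0 and 8.76 FPKM in WT, 0, 3.43 and 2.46 FPKM in MG and 21.9, 5.69 and 0 FPKM in MZ. The 3 MG libraries were below the 3 WT libraries (log2 difference -2.49 ± 0.96, limma adjusted p = 0.216), while MZ spanned both. Ndufs1, which carries iron-sulfur clusters at the NADH end of the arm (chromosome 1, 63143596 to 63176833), was at 1.52, 0.831 and 0.860 FPKM in WT, 2.63, 3.17 and 2.94 FPKM in MG and 0.879, 1.69 and 0.699 FPKM in MZ. It was higher in all 3 MG libraries than in the other 6, with a log2 difference from WT of 0.93 ± 0.37 (limma adjusted p = 0.233). These values correspond to at most 6.0 fragments in any library.

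Ndufv1, which binds NADH and the flavin, was at 11, 24.0 and 28.0 FPKM in WT, 14.3, 15.9 and 8.84 FPKM in MG and 17.4, 18.3 and 18.9 FPKM in MZ. Its partner Ndufv2 was at 7.25, 4.75 and 0 FPKM in WT, 3.35, 0 and 0.933 FPKM in MG and 0, 6.44 and 6.67 FPKM in MZ. Ndufv1 was the only core subunit with all MG below all MZ libraries, and the difference did not pass (limma adjusted p = 0.498). Ndufs3 was at 5.59, 6.08 and 6.32 FPKM in WT, 6.47, 2.48 and 7.14 FPKM in MG and 6.37, 8.23 and 15.4 FPKM in MZ. The 3 MZ libraries of Ndufs3 were above the 3 WT libraries (log2 difference 0.57 ± 0.41, limma adjusted p = 0.864). Ndufs8, which carries iron-sulfur clusters on the path to ubiquinone, was at 14.2, 16.0 and 5.59 FPKM in WT, 8.54, 6.52 and 9.49 FPKM in MG and 4.17, 7.78 and 3.38 FPKM in MZ.

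Among the 9 accessory subunits of the matrix arm 0 passed limma in any comparison. In MZ against WT and MG against MZ 0 had an unadjusted p under 0.05 (6.3% and 17.6% of all tested genes). In MG against WT 1 had one (17.7% of all). That gene was Ndufa5, at 7.11, 38.0 and 23.9 FPKM in WT, 16.5, 0 and 0 FPKM in MG and 23.5, 20.6 and 0 FPKM in MZ, with overlap between the groups. Ndufs4 and Ndufs6, accessory subunits at the NADH end, had log2 differences of MG against WT of -0.69 ± 0.47 and -0.47 ± 0.53 and did not pass (limma adjusted p = 0.482 and 0.689). Ndufa9, which borders the ubiquinone site, was at 16.8 ± 3.89 FPKM in WT, 22.6 ± 7.34 in MG and 22.4 ± 1.63 in MZ (SD, n = 3 each). Ndufa6, Ndufa7, Ndufa12 and Ndufv3 had means over the 9 libraries of 87.2, 56.9, 90.6 and 36.6 FPKM and log2 differences between -0.51 and 0.87 in the 3 comparisons.

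In the proximal membrane arm Ndufa8, a subunit on the intermembrane side, was nearly level between the groups, at 135, 163 and 134 FPKM in WT, 161, 148 and 122 FPKM in MG and 110, 164 and 176 FPKM in MZ. Its log2 difference was -0.01 ± 0.21 in MG against WT and 0.04 ± 0.21 in MZ against WT. Ndufa3, a small subunit of the same arm (chromosome 7, 3617373 to 3620327), was listed at 0 in all 3 MG libraries and at 25.9, 17.9 and 23.2 FPKM in MZ. In WT it was at 26.1, 0 and 0 FPKM, so WT spans both. In MG against MZ limma gave an adjusted p of 0.0800, and over 17 alternatives it ran from 0.00178 to 0.239 with the call made in 3. The authors' deposited table gives Ndufa3 a q-value of 0.00939 and Ndufb3 a q-value of 0.0105 in that comparison. Ndufc2 was at 47.1, 40.7 and 47.8 FPKM in WT, 38.3, 37.4 and 29.8 FPKM in MG and 68.7, 41.3 and 47.4 FPKM in MZ. MG was below the other 6 libraries for Ndufc2, and neither difference passed (limma adjusted p = 0.443 against WT and 0.240 against MZ). Ndufa10 and Ndufa13 had log2 differences between -0.50 and 1.5, with no call by limma. Of the 7 tested genes of the proximal arm 0 had an unadjusted p under 0.05 in MG against WT (17.7% of all tested genes). In MZ against WT it was 1 (6.3% of all) and in MG against MZ 2 (17.6%).

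Ndufs5, a subunit on the intermembrane side (chromosome 4, 123712710 to 123718202), varied most within groups. It was at 110, 0.130 and 187 FPKM in WT, 79.0, 14.5 and 0.0224 FPKM in MG and 0.0789, 82.3 and 177 FPKM in MZ. Its processed pseudogene BC002163, 99.4% identical over 319 bases, has its own row and was at 304, 518 and 252 FPKM in WT, 273, 333 and 241 FPKM in MG and 358, 394 and 252 FPKM in MZ. The WT library with the least Ndufs5 had the most BC002163, which was not so in MG and MZ. The sum of the 2 rows was lower in all MG (241 to 352) than in all WT (414 to 518) and all MZ libraries (358 to 476). Its mean was 457 ± 54.1 FPKM in WT, 313 ± 62.3 in MG and 421 ± 59.6 in MZ (SD, n = 3 each), against 99.2 ± 94.1, 31.2 ± 42.1 and 86.6 ± 88.7 for Ndufs5 alone. FPKM summed over all genes was also lower in MG (428329 to 554305) than in WT (584503 to 718684) and MZ (657851 to 677618). The sum of the 2 rows was not taken as a share of that total. The 2 sequences are near-identical, so the split of reads between these rows is uncertain, and the row BC002163 was picked after its values were seen. Processed pseudogenes at least 95% identical over 200 bases or more also exist for Ndufa12, Ndufb3, Ndufb4, Ndufb11, Ndufs3 and Ndufs6, with no row of their own. Ndufa2, Ndufa4l2, Ndufa10, Ndufa13, Ndufb11 and Ndufs1 each share their locus with 1 other row, and Ndufs7 shares its locus with 48.

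Of the genes that carry the name without being complex I subunits, Ndufa4 overlapped between all groups. Ndufa4l2 was at 8.13, 0 and 0 FPKM in WT, 6.27, 16.8 and 10.4 FPKM in MG and 6.17, 9.97 and 12.4 FPKM in MZ. Its log2 differences from WT were 2.45 ± 0.75 in MG (limma adjusted p = 0.143) and 2.29 ± 0.75 in MZ (limma adjusted p = 0.671), with WT 1 inside the range of both. For MG the adjusted p ran from 0.0404 (without WT 1) to 0.296 over 17 alternatives, with the call made in 1.

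As a group the 34 tested genes had a median log2 difference of -0.38 in MG against WT, and 24 of them (70.6%) were negative, against a median of 0.04 and 47.0% negative over all tested genes. In MZ against WT the median was -0.17 (0.01 over all genes), with 21 negative, and in MG against MZ it was -0.13 (0.04), with 22 negative. These medians depend on the scaling: with libraries scaled to the same FPKM sum they were -0.0085 in MG against WT and 0.24 in MG against MZ. There the median of all tested genes moved to 0.36 and 0.39, so the Nduf medians stayed below those of all tested genes. With libraries scaled to the same upper quartile the Nduf medians were -0.33 and -0.11, against 0.08 and 0.06 over all tested genes. In MG against WT transcript length moved with the result. The 521 tested genes whose longest transcript is under 1000 bases had a median of -0.26, and the 17 Nduf genes among them one of -0.47. The same medians were 0.0063 and -0.22 in MZ against WT, and -0.23 and -0.25 in MG against MZ. The part of length in the result was not tested. Single libraries carried much of it. Against the WT mean the median Nduf gene was at 0.05 in MG 1, -0.50 in MG 2 and -0.47 in MG 3. Without WT 2 the median of MG against WT was -0.23 and without WT 3 it was -0.18. Without MG 3 the median of MG against MZ was 0.03.

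Over all 37 genes the summed FPKM came to 1479, 1555 and 1683 for WT, 1611, 1204 and 1202 for MG and 1409, 1694 and 1355 for MZ, and the groups overlapped. Summed by arm, the core of the matrix arm was lower in all MG libraries (38.9 to 49.5) than in WT (54.2 to 81.6) and MZ (57.1 to 61.5), and the distal membrane arm was lower in MG (330 to 440) than in WT (486 to 575). As shares of each library's total FPKM the ranges overlapped: the core made up 0.00826 to 0.00908% in MG, 0.00828 to 0.0140% in WT and 0.00842 to 0.00935% in MZ. The distal arm made up 0.0641 to 0.0901% in MG and 0.0677 to 0.0879% in WT. The total was itself lower in MG, although the median tested gene was at 0.037 to 0.076 log2 against the WT mean in MG libraries. A share of the total is therefore no neutral scale, and the part of the total in the lower sums was not tested. All 37 genes together made up 0.243 ± 0.033% of the total in WT, 0.268 ± 0.030% in MG and 0.222 ± 0.025% in MZ (SD, n = 3 each).

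**Figure D4:**
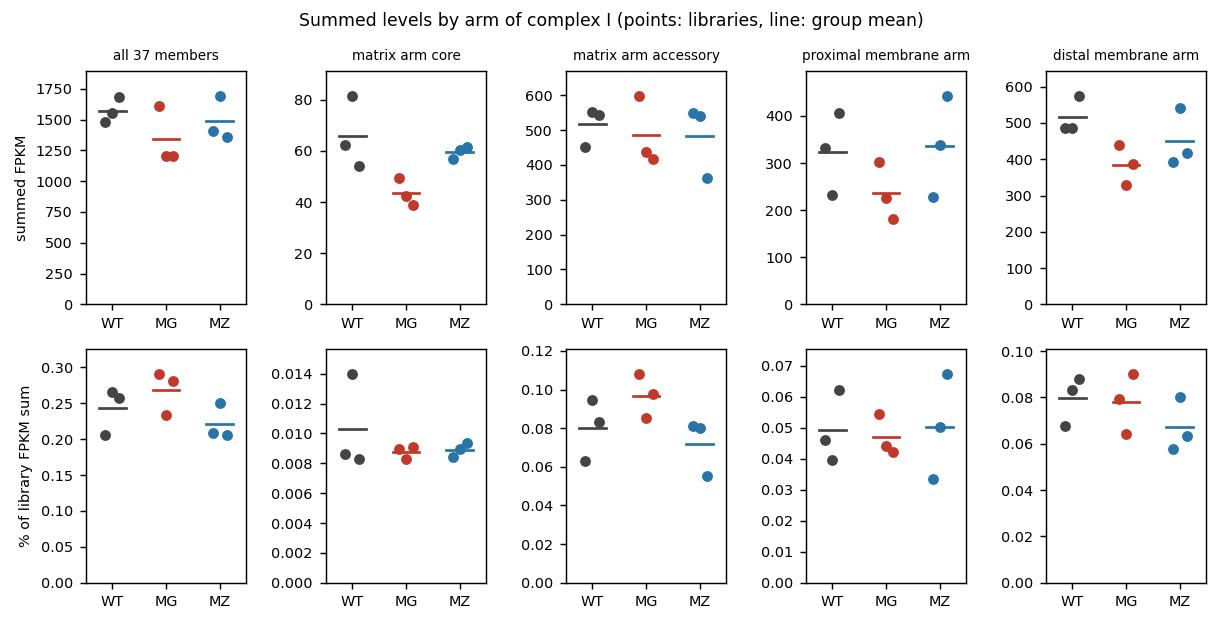
Summed FPKM (upper row) and the same sum as a percentage of the library's total FPKM (lower row) for all 37 genes and for each arm of complex I; points are libraries, lines are group means, and all y axes start at 0. The core of the matrix arm is lower in MG than in WT and MZ as a sum and overlaps them as a share.

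Genes around complex I were read from lists. Ndufab1, the acyl carrier protein and a subunit outside the name pattern, was at 10.8, 7.77 and 4.04 FPKM in WT, 8.30, 6.34 and 11.4 FPKM in MG and 12.2, 13.1 and 13.1 FPKM in MZ. Of 12 tested assembly factors 0 passed limma in any comparison. Their unadjusted p was under 0.05 for 2 in MG against WT, 0 in MZ against WT and 1 in MG against MZ. The shares over all tested genes were 17.7%, 6.3% and 17.6%, in that order. Ndufaf4, an assembly factor of the matrix arm, was at 138, 133 and 135 FPKM in WT, 70.8, 97.8 and 103 FPKM in MG and 130, 121 and 108 FPKM in MZ. Every MG library was below the other 6 (log2 difference from WT -0.60, limma adjusted p = 0.146). Timmdc1, an assembly factor of the membrane arm, was at 1.86 ± 2.30 FPKM in WT, 7.73 ± 3.00 in MG and 4.06 ± 0.54 in MZ (SD, n = 3 each; MG against WT, limma adjusted p = 0.135).

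Of 36 tested subunits of complexes II to V, 0 passed limma in any comparison, with 7, 2 and 12 at an unadjusted p under 0.05. Over all tested genes the shares were 17.7%, 6.3% and 17.6% in the same order of comparisons. Their median log2 difference was -0.39 in MG against WT, with 29 of 36 negative, 0.17 in MZ against WT and -0.46 in MG against MZ. By the authors' q-values, under 0.05, Cox8a passed in MZ against WT (q = 0.0209, higher in MZ), where 0.787% of all tested genes passed. In MG against MZ, Cox8a, Atp5b, Atp5a1, Cox4i1, Cox7a2, Cox5b and Sdhc passed, all lower in MG. Their q-values ran from 0.000639 to 0.0389 (9.05% of all tested genes passed). In MG against WT the smallest q-value was 0.0654 (Uqcrh). Uqcrh, the hinge subunit of complex III, was at 208 ± 41.9 FPKM in WT, 119 ± 25.4 in MG and 180 ± 9.84 in MZ (SD, n = 3 each), with MG below WT in every library (limma adjusted p = 0.109). Cox8a, a subunit of complex IV, was at 194 ± 120 FPKM in MG and 487 ± 44.9 in MZ (SD, n = 3 each), lower in every MG library (limma adjusted p = 0.0926). Cox7a2, also of complex IV, was at 34.4 ± 8.84 FPKM in MG and 78.6 ± 4.63 in MZ (SD, n = 3 each; limma adjusted p = 0.0956). In MZ against WT the smallest limma p-values were those of Cox7c of complex IV and Sdhc of complex II. Cox7c was at 25.1 ± 16.9 FPKM in MZ and 69.7 ± 10.2 in WT (SD, n = 3 each, limma adjusted p = 0.743). Sdhc was at 256 ± 27.8 FPKM in MZ and 192 ± 16.3 in WT (SD, n = 3 each, limma adjusted p = 0.744).

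Of 12 tested regulators of respiratory genes 0 passed limma in any comparison, with 5, 0 and 3 at an unadjusted p under 0.05. Over all tested genes the shares were 17.7%, 6.3% and 17.6% in the same order of comparisons. Tfam, a factor for the transcription and packaging of mitochondrial DNA, was at 5.49, 3.28 and 5.66 FPKM in WT, 20.2, 14.3 and 11 FPKM in MG and 7.53, 7.78 and 6.90 FPKM in MZ. Yy1, the factor named for the motif core shown with the promoters, was at 0.891, 0.976 and 0 FPKM in WT, 4.12, 8.75 and 8.06 FPKM in MG and 0, 0.661 and 2.46 FPKM in MZ. Both were higher in every MG library than in the other 6, and neither passed against WT (limma adjusted p = 0.0747 for Tfam and 0.0831 for Yy1). Nrf1, the factor of the NRF1 motif, was instead at 15.3, 22.6 and 23.1 FPKM in WT, 7.75, 13.8 and 15.6 FPKM in MG and 11.2, 17.0 and 10.7 FPKM in MZ. Its log2 differences from WT were -0.70 in MG (limma adjusted p = 0.281) and -0.61 in MZ (adjusted p = 0.789), with overlap in both. The log2 differences of MG against WT in the genes with the YY1 core were -1.59 for Ndufa3, 0.39 for Ndufa9, 0.42 for Ndufb8, -0.69 for Ndufs4, -0.47 for Ndufs6 and -2.49 for Ndufs7, of both signs. Gabpa, a subunit of GABP, was at 0.146 ± 0.252 FPKM in WT, 1.83 ± 0.694 in MG and 0.0954 ± 0.165 in MZ (SD, n = 3 each; MG against MZ, limma adjusted p = 0.116).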

How the data were processed

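Fully grown oocytes were lysed, their RNA was amplified by Smart-seq2 and libraries were made with a NEBNext Ultra kit, per the labels' protocols. Paired 150 bp reads were aligned to mm10, per the submitters' processing notes, with TopHat2 2.0.13, and the authors computed the deposited FPKM with Cufflinks 2.2.1 and the deposited p-values and q-values with Cuffdiff. For strand in counting, the setting is not given in the sources used. Of 24255 rows, 27 had a date as symbol and were left out.

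FPKM are not counts. The 10801 genes that reached 1 FPKM in 3 or more of the 9 libraries were fitted on log2(FPKM + 1), pseudocount 1, in limma 3.58.1 (R 4.3.3; eBayes with trend, 9 libraries, 6 residual degrees of freedom), two-sided, with Benjamini-Hochberg adjustment within each contrast. On this log2(FPKM + 1) scale the changes of low genes are understated. The fit was tested on simulated data; the required recovery of changed genes was lowered after the first result was seen. Fragment numbers are upper values, from the lowest FPKM steps and the longest GENCODE M21 transcript. Coordinates are 1-based.

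The genes and lists were chosen with earlier results of these data known. Values in every library are given for genes that passed, the 5 with the smallest p per contrast, the 7 nuclear core subunits, the 3 highest and 3 lowest genes, Ndufa4 and Ndufa4l2; from other lists, up to 2 per contrast. A gene that this rule takes is counted but not reported here by itself. Ndufa5, Ndufa8, Ndufs5, BC002163 and Ndufab1 were added after their values were seen. The motif letters, the count over the first 50 transcribed bases and the identity and length limits for pseudogenes were set after the files or the matches had been seen. Alternatives covered pseudocount, filter, scaling, variance trend, libraries in the fit, replicate block and each library left out; sums without Ndufs5 were added after seeing the data.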

Additional observations from a re-analysis of the deposited data

Results flagged for a closer look

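The difference of Ndufb3 between the Mtor knockouts was tested directly: MG against MZ gave a log2 difference of -1.37 (limma adjusted p = 0.0358), with MG below and MZ above WT in all 3 libraries each. Groups of 3 libraries are too small for the check on single outlying libraries.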

How the results depend on the processing

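Of the 34 genes in MG against MZ, 0 passed with a pseudocount of 0.1, with no filter, with libraries scaled to the same FPKM sum or without the variance trend, and 2 (Ndufb3 and Ndufa3) passed with only the 6 libraries of the comparison. The same-numbered libraries of different groups did not deviate together (r between -0.07 and 0.07 over 9 pairs, 0 above 0.1). Pairs with different numbers had r between -0.11 and 0.08. The values show no pairing by number, though with 3 libraries per group they cannot settle it. With a replicate block 2 genes passed, and calls over all genes went from 14 to 159. Leaving out single libraries gave 0 to 2 calls in MG against MZ, 0 to 1 in MG against WT (Ndufa4l2 without WT 1, Ndufb10 without MG 1) and 0 to 1 in MZ against WT (Ndufa3 without WT 1). With libraries scaled to the same FPKM sum the median log2 difference was -0.0085 in MG against WT and 0.24 in MG against MZ. The median of all tested genes was then 0.36 and 0.39. With libraries scaled to the same upper quartile the medians were -0.33 and -0.11, against 0.08 and 0.06 over all tested genes. The log2 ratio of summed FPKM reversed under scaling to the same FPKM sum. It went from -0.23 to 0.14 in MG against WT and from -0.15 to 0.28 in MG against MZ. Leaving out single libraries, the median ran from -0.43 to -0.18 in MG against WT, from -0.37 (without MZ 2) to -0.047 (without MZ 1) in MZ against WT and from -0.26 (without MG 1) to 0.03 in MG against MZ. The causes of these shifts were not tested. The low fragment numbers limit the precision of subunits of a few FPKM.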
